A study of Mus musculus with 68 samples.

Results

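The wild-derived founder strains CAST, PWK and WSB were compared with the classical strains 129, A, B6, NOD and NZO for how their mouse embryonic fibroblasts (MEFs) responded to tunicamycin (TM). All libraries of the 8 founder strains were taken, and each strain was put in its class by its name in the labels. These were 40 of the 68 libraries of the series, 15 from the wild-derived class (7 control and 8 TM) and 25 from the classical class (11 control and 14 TM). Of 13197 genes in the founder tables, 12618 passed the filter on low values and were tested. TM cultures received 2 µg/ml TM and control cultures 0.1% DMSO, both for 4 h. The other 28 libraries came from F1 MEFs with a B6 mother and a 129, CAST, NOD, NZO or WSB father. The MEFs of each strain were a mixture from several female embryos of a single litter, so the replicates of a strain (2 or 3 per condition) were wells of the same cells. A strain therefore cannot be told apart from its litter, and a class is represented by as many independent cell pools as it has strains.

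TM blocks the addition of N-linked glycans to proteins entering the endoplasmic reticulum (ER), and unfolded proteins then accumulate in the ER lumen. 3 sensors in the ER membrane, IRE1, PERK and ATF6, start the unfolded protein response. IRE1 splices the Xbp1 transcript, PERK slows translation and favours the transcription factors ATF4 and CHOP, and ATF6 becomes a factor for chaperone genes. CAST and PWK descend from the subspecies Mus musculus castaneus and M. m. musculus, whereas WSB descends from M. m. domesticus, the subspecies that contributed most to the classical strains.

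The response of a gene in a strain was the mean of log2(value + 0.1) over its TM libraries minus the mean over its control libraries. Values were TMM-scaled reads, not divided by gene length. The class difference was the mean response of the 3 wild-derived strains minus that of the 5 classical strains. It was tested with limma across all genes, first with the 8 strains as the units and then with the 40 libraries as the units and strain as a block. The second test treats wells of the same cells as replicates of a class. Recovered reads per library lay between 7091920 and 21530300 (median 11927000, 38 libraries), with medians of 11742100 in the wild-derived and 12184600 in the classical class. The medians of reads per strain did not differ by more than their spread (exact permutation test over strains, two-sided, p = 0.964). The fibroblast marker list was the dominant one in every library, its summed level ranging from 29700 to 59700 in the wild-derived and from 19300 to 57820 in the classical libraries. Over the 14 myeloid markers, 12 of which were in the tables, the sum ranged from 8.55 to 42.3 in the wild-derived and from 12.6 to 70.7 in the classical libraries. Control medians were lower in the wild-derived than in the classical class for the myeloid list, for 4 endothelial markers (3.00 and 4.67), for 3 skeletal muscle markers (31.6 and 109) and for 6 neural markers (315 and 715). They were higher for the fibroblast list (50250 and 32150) and for 3 epithelial markers, whose medians were 46.3 and 15.2 in control and 11.9 and 12.0 under TM. No marker list was at 0 throughout, fewer cells of a type and less RNA per cell cannot be told apart in bulk samples, and the part of these levels in the results was not tested.

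One library stood apart. In WSB control replicate 2, 58 genes exceeded the next highest founder library by at least 4 fold, whereas in any other library at most 1 gene did. Of 16 genes of adipocytes, a list put together after this library was seen, 15 had their highest value there. Their summed level was 2848 in that library and between 63.6 and 154 (median 93.5) in the other 39. Adipoq, which encodes the fat cell hormone adiponectin, was at 98.8 there, at 0.147 in the other WSB control library and at no more than 1.80 elsewhere. Results that rest on this library are given with and without it.

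The response to TM was broadly shared by the classes. In the wild-derived strains 710 genes rose (5.63% of those tested) and 527 fell (4.18%), where a call needed 1.5 fold and an adjusted p under 0.01 (limma). In the classical strains 710 rose (5.63%) and 530 fell (4.2%). The raised sets had 559 genes in common, 78.7% of each set, and the lowered sets had 350 in common, 66.4% of the wild-derived and 66% of the classical set. No gene was raised in one class and lowered in the other. Of the 1568 genes past the thresholds in at least 1 class, 1565 had the same sign of the mean response in both. The 151 genes raised past the thresholds in the classical strains alone included 150 with a positive mean response in the wild-derived strains, and all 151 raised past them in the wild-derived strains alone were positive in the classical strains. Without PWK the wild-derived strains numbered 2, and the counts fell to 486 raised and 252 lowered genes. Without WSB control replicate 2 they were 623 and 442.

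**Figure D1:**
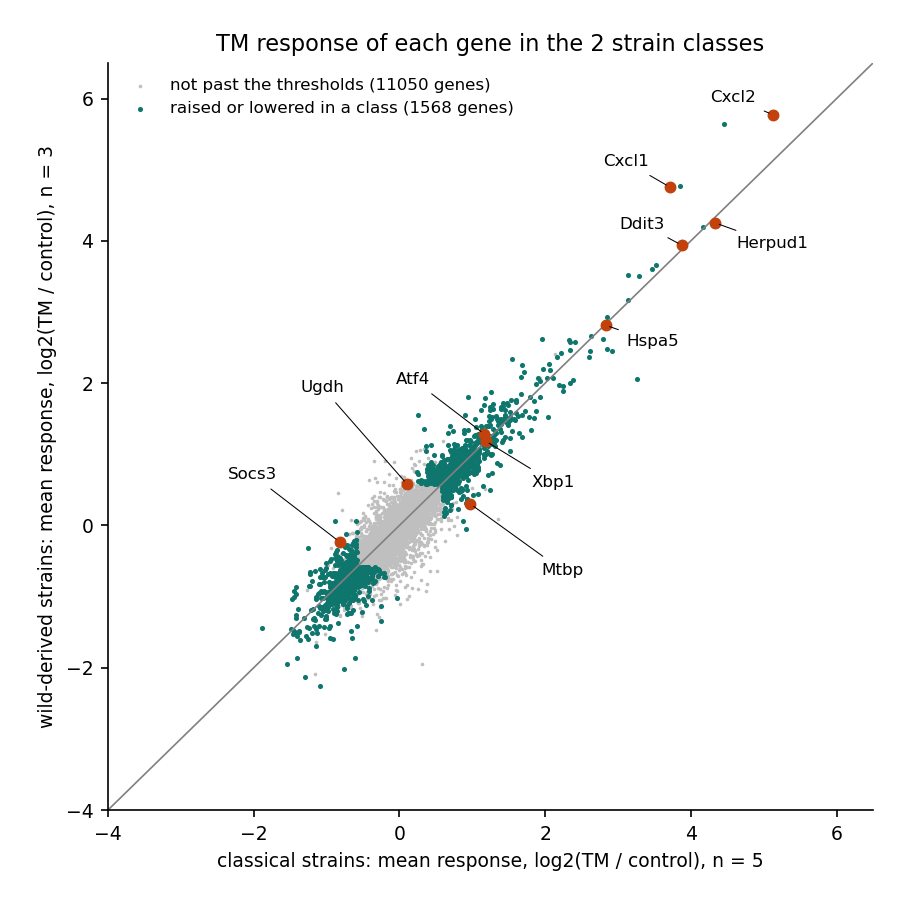
Mean response, log2(TM / control), of each of the 12618 genes in the 5 classical strains (horizontal axis) and the 3 wild-derived strains (vertical axis), with the line of equal response. The 1568 genes raised or lowered in a class lie along the line, and Mtbp, Socs3 and Ugdh lie away from it.

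Among genes that define the unfolded protein response, Hspa5 encodes BiP, the main ER chaperone, and its value was between 832 and 1065 (median 991) in wild-derived controls and between 787 and 1587 (median 836) in classical controls. Under TM it reached 5144 to 8092 (median 7412) and 5106 to 8816 (median 6173). Control and TM libraries were fully separate in both classes, while the classes overlapped in both conditions. The authors had removed libraries that did not group with their condition, and the part of this in the separation was not tested. The mean response was 2.81 (log2) in the wild-derived and 2.83 in the classical strains. The difference of -0.02 had a 95% confidence interval of -0.33 to 0.30.

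Herpud1, a component of ER-associated degradation, rose from a median of 64.9 (49.2 to 85.4) to 1381 (882 to 1560) in the wild-derived libraries and from 55.7 (45.5 to 75.5) to 1168 (816 to 1701) in the classical ones. Its responses of 4.25 and 4.34 differed by -0.09 (-0.44 to 0.27). Ddit3, which encodes CHOP, had medians of 32.2 in control and 516 under TM in the wild-derived libraries, against 39.6 and 566 in the classical ones. Its difference was 0.06 (-0.45 to 0.58). Over the 8 strains the response ranged from 3.21 to 4.33 for Ddit3 and from 3.96 to 4.70 for Herpud1 (log2), and both genes rose in both classes.

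Xbp1 and Atf4 encode transcription factors of the IRE1 and PERK branches. Xbp1 responded by 1.19 in the wild-derived and 1.18 in the classical strains, a difference of 0.004 (-0.19 to 0.20), so that a class difference above 0.20 lay outside the interval. Atf4 responded by 1.28 and 1.17, a difference of 0.12 (-0.19 to 0.42). The gene table counts whole genes, so the spliced and unspliced forms of Xbp1 are not separated here.

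Some chaperone promoters carry the sequence through which ATF6 and XBP1 are known to act, and those of Hspa5 and Hsp90b1 are shown for that reason. They are RefSeq windows of 250 bases before to 50 bases after the annotated start in the B6 reference (GRCm38.p6), and the alleles of the other strains were not analysed here. The capitals mark the ER stress response element, CCAAT and CCACG with 9 free bases between them, searched on both strands, and in Hspa5 also 1 AP-1 site TGANTCA. The Hspa5 window is chr2:34771840-34772139 on the plus strand and the Hsp90b1 window is chr10:86705395-86705694 on the minus strand.
Hspa5: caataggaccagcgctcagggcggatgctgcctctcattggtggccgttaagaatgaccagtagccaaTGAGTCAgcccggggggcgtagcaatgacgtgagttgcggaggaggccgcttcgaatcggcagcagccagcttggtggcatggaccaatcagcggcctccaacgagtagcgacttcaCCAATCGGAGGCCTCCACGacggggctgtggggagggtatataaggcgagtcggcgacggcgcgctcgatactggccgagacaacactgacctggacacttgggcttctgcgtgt
Hsp90b1: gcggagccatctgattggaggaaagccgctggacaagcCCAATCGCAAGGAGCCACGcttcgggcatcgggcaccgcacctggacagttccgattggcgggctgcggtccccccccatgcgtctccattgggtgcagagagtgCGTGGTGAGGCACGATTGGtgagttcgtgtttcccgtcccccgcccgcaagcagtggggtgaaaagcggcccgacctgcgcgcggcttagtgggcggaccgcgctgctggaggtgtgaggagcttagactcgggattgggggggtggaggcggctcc
The element was present in 0.119% of 32851 promoter windows. By gene, it was in at least 1 window of 7 of the 19 ER chaperone and folding genes with a window. Hsp90b1, the ER form of the HSP90 chaperones, rose from medians of 1153 to 3918 in the wild-derived libraries and from 880 to 3196 in the classical ones.

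Of the 24 ER chaperones and folding enzymes, 16 rose in the wild-derived and 15 in the classical strains, 15 of them in both, and none fell. The median response of the list was 1.02 and 0.89, and the median class difference was 0.03 against 0.005 over all genes tested. Sdf2l1, an ER stress-inducible partner of BiP, rose 8.96 fold and 8.81 fold. Dnajb9, a co-chaperone of BiP, rose 7.64 fold and 7.21 fold. The confidence intervals of all class differences in this list included 0.

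Of 20 genes of ER-associated degradation, 8 rose in both classes. Derl3, which encodes a derlin of the retrotranslocation machinery, rose 27.4 fold in the wild-derived and 14.4 fold in the classical strains. Its control values were low, between 0 and 0.71 in the wild-derived and between 0.41 and 1.15 in the classical libraries. A single read was worth 0.046 in B6 control replicate 2 and 0.147 in WSB control replicate 3. The TM medians of Derl3 were 11.5 and 11.2. The difference of 0.93 (0.09 to 1.77) had an unadjusted p of 0.0325 and an adjusted p of 1 (limma over strains). Among 12 sensors and transducers, Xbp1 rose in both classes, and Eif2ak3, which encodes PERK, rose in the classical strains by 1.56 fold and changed 1.30 fold in the wild-derived strains, short of the threshold. Its difference was -0.26 (-0.54 to 0.01).

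Of 30 targets of ATF4 and CHOP, 20 rose in the wild-derived and 22 in the classical strains, 20 in both. The median class difference was -0.004. The member with the smallest p over libraries was Sesn2, a stress-induced regulator of mTORC1. Its TM values lay between 175 and 406 (median 297) in the wild-derived and between 100 and 191 (median 156) in the classical libraries, from control medians of 95.4 and 78.8. It rose 2.93 fold and 1.87 fold, a difference of 0.65 (0.19 to 1.11). The unadjusted p was 0.00999 over strains and the adjusted p 0.325 over libraries (limma). Its strain responses overlapped, at 1.05 to 2.15 in the wild-derived and 0.67 to 1.23 in the classical class. With 1 coefficient per strain and treatment, a fit whose error is the spread between wells alone, the adjusted p over libraries was 0.00206 (limma). Ppp1r15a, which encodes the phosphatase subunit GADD34 that restores translation, rose 4.25 fold and 3.19 fold (difference 0.41, 0.01 to 0.82). Of 19 cytosolic tRNA synthetases, which ATF4 also controls, 8 rose in the wild-derived and 7 in the classical strains, 6 in both. Wars rose 1.70 fold and 1.68 fold.

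With the 8 strains as the units, no gene showed a class difference in response at an adjusted p below 0.05 (0 of 12618, 0%). At an unadjusted p below 0.05, 117 genes responded more positively in the wild-derived strains (0.927%) and 96 more negatively (0.761%). The smallest unadjusted p was 0.00048 and its adjusted p was 1. All 3 wild-derived strains were above all 5 classical strains for 120 genes (0.951%) and below them for 76 genes (0.602%), of which 35 and 13 belonged to the 1568 responding genes. The median absolute class difference of the responding genes was 0.13 and the 95th percentile 0.50, and the median half-width of their confidence intervals was 0.38. Over the responding genes, the SD of responses between strains had a median of 0.27 within the wild-derived and 0.22 within the classical class.

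The likeness of strains in their whole response overlapped within and between classes. Over the 1568 responding genes, Pearson's r between strains was 0.863 to 0.941 (median 0.921) for the 10 pairs of classical strains, 0.853 to 0.92 (median 0.882) for the 3 pairs of wild-derived strains and 0.839 to 0.937 (median 0.903) for the 15 mixed pairs. These are correlations across genes, the genes were chosen for their response, and each strain enters 7 pairs. The spread of the response over all tested genes, as its SD, was widest in WSB at 0.646 and narrowest in NOD at 0.403, with the other strains between 0.455 and 0.509. WSB also had the lowest median of reads per library, 8203709, and the part of depth in this was not tested. Class means of this SD were 0.531 and 0.472 (exact permutation test over strains, two-sided, p = 0.393, smallest possible p 0.0357). Without WSB control replicate 2 the SD of WSB was 0.634.

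With the 40 libraries as the units, 3 genes differed at an adjusted p below 0.05 (0.0238%, 311 genes at an unadjusted p below 0.05): Mtbp, Socs3 and Ugdh. They rest on the smaller variance between wells and are given in full. On the recovered reads of 38 libraries, edgeR's quasi-likelihood test called none of them, with adjusted p of 0.0672 for Mtbp and 0.183 for both Socs3 and Ugdh. It called 0 genes in all and had 283 at an unadjusted p below 0.05.

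Mtbp (chr15:55557408-55626423) encodes a binding protein of MDM2 that takes part in DNA replication. In wild-derived controls it was between 6.33 and 14.9 (median 10.7) and under TM between 9.75 and 16.8 (median 11.8). In classical controls it was between 11.1 and 21.0 (median 14.2) and under TM between 18.8 and 34.4 (median 30.1). Every classical TM library was above every wild-derived TM library, whereas the controls overlapped. The responses were 0.13 in CAST, 0.25 in PWK and 0.52 in WSB, against 0.63 in B6, 0.98 in 129, 1.02 in NOD, 1.09 in NZO and 1.14 in A. Mtbp rose 1.96 fold in the classical strains and changed 1.23 fold in the wild-derived strains, short of the threshold. The difference was -0.67 (-0.98 to -0.36, unadjusted p = 0.000562, adjusted p of 1 over strains with limma) and -0.69 with an adjusted p of 0.0182 over libraries. The adjusted p over libraries rose to 0.0577 without CAST control replicate 3, 0.0605 and 0.06 without PWK control replicates 2 and 3, and 0.0567 and 0.0645 without PWK TM replicates 2 and 3.

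Socs3 (chr11:117966079-117970047, minus strand) encodes a feedback inhibitor of JAK and STAT signalling that cytokines induce. In classical controls it was between 20.7 and 40.9 (median 29.1) and fell to between 12.0 and 23.6 (median 16.9) under TM. In wild-derived controls it was between 13.0 and 21.6 (median 16.8), and under TM between 8.30 and 17.6 (median 15.8). The ranges of the classes overlapped in part under TM and narrowly in control. The mean control level of the wild-derived strains was lower by 0.84 on the log2 scale. That control difference (unadjusted p = 0.00279, limma over strains) did not pass adjustment over all genes. The responses were 0.06 in WSB, -0.20 in PWK and -0.55 in CAST, against -0.53 in NZO, -0.78 in NOD, -0.89 in A, -0.92 in B6 and -0.996 in 129, so that CAST and NZO overlapped. The difference was 0.59 (0.26 to 0.93, unadjusted p = 0.00253 over strains) and 0.61 with an adjusted p of 0.0434 over libraries. The same control libraries enter the control level and the response.

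The Socs3 promoter window (chr11:117969317-117969616, minus strand) is shown because STAT factors are known to regulate this gene. It held 1 match to the STAT motif TTCNNNGAA, in capitals, and 8.3% of all windows held at least 1.
Socs3: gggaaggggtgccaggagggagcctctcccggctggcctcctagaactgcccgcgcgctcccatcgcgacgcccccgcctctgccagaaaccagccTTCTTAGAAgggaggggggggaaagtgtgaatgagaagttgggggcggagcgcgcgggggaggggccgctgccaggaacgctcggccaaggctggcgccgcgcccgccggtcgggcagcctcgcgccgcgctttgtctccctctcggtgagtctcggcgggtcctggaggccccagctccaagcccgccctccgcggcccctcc

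Ugdh (chr5:65413221-65435949, minus strand) encodes UDP-glucose dehydrogenase, which makes the UDP-glucuronic acid used for hyaluronan and other glycosaminoglycans. In wild-derived libraries it was between 316 and 685 (median 433) in control and between 549 and 987 (median 649) under TM. In classical libraries it was between 410 and 673 (median 470) in control and between 464 and 655 (median 528) under TM. The responses were 0.46 in CAST, 0.52 in PWK and 0.76 in WSB, and between -0.06 in NOD and 0.27 in NZO in the classical strains. Ugdh was 1 of 3 genes for which each of the 8 wild-derived TM libraries, taken against the control mean of its strain, was above each of the 14 classical ones. The others were Slc25a38, a mitochondrial glycine carrier of heme synthesis, and Peli2, a ubiquitin ligase of the Pellino family, and none lay below in this way. The difference was 0.48 (0.23 to 0.72, unadjusted p = 0.00134 over strains) and 0.49 with an adjusted p of 0.0434 over libraries. The wild-derived change of 1.50 fold stayed just under the threshold for a call. Without WSB control replicate 2 the differences were 0.40 for Ugdh, 0.65 for Socs3 and -0.76 for Mtbp, and of the 3 only Mtbp was called over libraries.

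When each library was left out in turn, Mtbp stayed below an adjusted p of 0.05 over libraries in 35 of 40 cases, Socs3 in 12 and Ugdh in 11. The highest adjusted p was 0.123 for Socs3 and 0.117 for Ugdh, both without PWK control replicate 3. When each strain was left out, they stayed below it in 3, 2 and 1 of 8 cases.

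**Figure D2:**
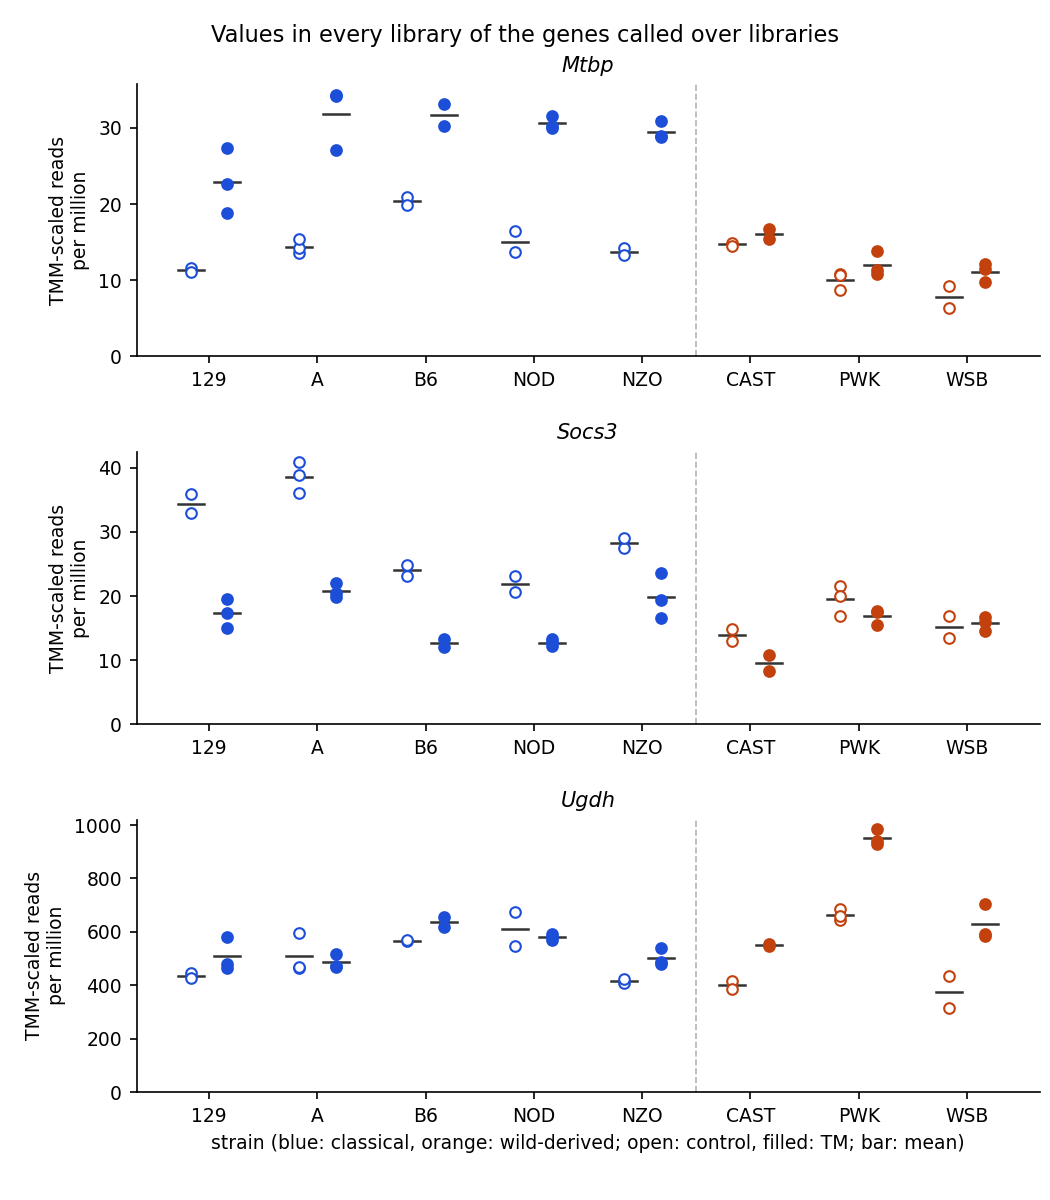
Values of Mtbp, Socs3 and Ugdh in every founder library (vertical axis, TMM-scaled reads) by strain, classical in blue and wild-derived in orange, controls open and TM filled, with the mean of each group as a bar. For Mtbp the classical TM libraries lie above all wild-derived ones. For Socs3 the wild-derived controls are mostly lower, with a narrow overlap and no difference past adjustment. For Ugdh the TM values exceed the controls most in CAST, PWK and WSB.

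Among the 2079 genes with a mean response of at least 1.5 fold in a class, the 10 ranked first for a more positive response in the wild-derived strains were Areg, Zc3hav1, Socs3, Hist1h1d, Arrdc4, Dok5, Oaf, U90926, Wnt10a and Adm. None was past an adjusted p of 0.05 over strains. They were ranked on these same strain values, so a separation of the classes follows in part from the choice. Areg, which encodes the epidermal growth factor receptor ligand amphiregulin, rose in both classes, with responses of 1.81 in the wild-derived and 0.94 in the classical strains. Its controls were between 1.24 and 4.79 in the wild-derived and between 3.47 and 8.17 in the classical libraries, while its TM medians were 9.22 and 10.4. The difference was 0.87 (0.42 to 1.32, unadjusted p = 0.00134), and all 3 wild-derived strains were above all classical ones.

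Zc3hav1 encodes the antiviral zinc finger protein ZAP. It was between 91.3 and 128 under TM in the wild-derived and between 24.5 and 69.9 in the classical libraries, without overlap, from control medians of 43.3 and 29.1. It rose 2.19 fold in the wild-derived strains and changed 1.35 fold in the classical strains, a difference of 0.70 (0.33 to 1.06). The linker histone gene Hist1h1d belongs to a family of similar genes whose reads may be shared, and its responses were 1.05 and 0.36. Arrdc4, an arrestin-domain gene, rose in both classes with responses of 1.13 and 0.79, and so did Dok5, an adaptor of receptor tyrosine kinases, with 1.49 and 1.03.

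Oaf fell in both classes, by 1.01 in the wild-derived and by 1.44 in the classical strains on the log2 scale. Adm, which encodes the vasodilator peptide adrenomedullin, had responses of -0.48 and -0.86. U90926 had the widest interval of the 10 (difference 1.30, 0.44 to 2.16), and its wild-derived mean of 0.46 rested on PWK, since without that strain it was -0.19, and without WSB control replicate 2 it was 0.28. Wnt10a, a Wnt ligand, had responses of 0.61 and -0.22 at control medians of 1.65 and 3.22.

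The 10 ranked first for a more negative response in the wild-derived strains were a gene given only as ENSMUSG00000042233, Mtbp, Stac, 1700037C18Rik, Rasl12, Cyp2e1, Gpr173, Gpt, Enpp3 and Bdkrb1. Many of these were low, and 6 of them had median values under 3 in the controls of both classes. ENSMUSG00000042233 had the smallest p of all genes (difference -0.99, -1.44 to -0.54, unadjusted p = 0.00048), at control medians of 1.59 and 2.04. Rasl12, a Ras-like GTPase gene, had responses of -1.34 and -0.25 (difference -1.09, -1.74 to -0.44). Bdkrb1, the inducible bradykinin receptor, rose 1.88 fold in the classical strains, and its wild-derived responses ranged from -0.72 in CAST to 0.60 in PWK.

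Cyp2e1, Gpt and Enpp3 rested on the WSB control library that stood apart. Cyp2e1, a cytochrome P450 enzyme, was at 75.9 in that library, at 2.79 in the other WSB control and at most at 7.66 in any other founder library. Its difference was -1.27 with the library and -0.48 without it. Those of Gpt, an alanine aminotransferase, were -0.66 and -0.37, and those of Enpp3, an ectonucleotide pyrophosphatase, were -0.88 and -0.51.

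**Figure D3:**
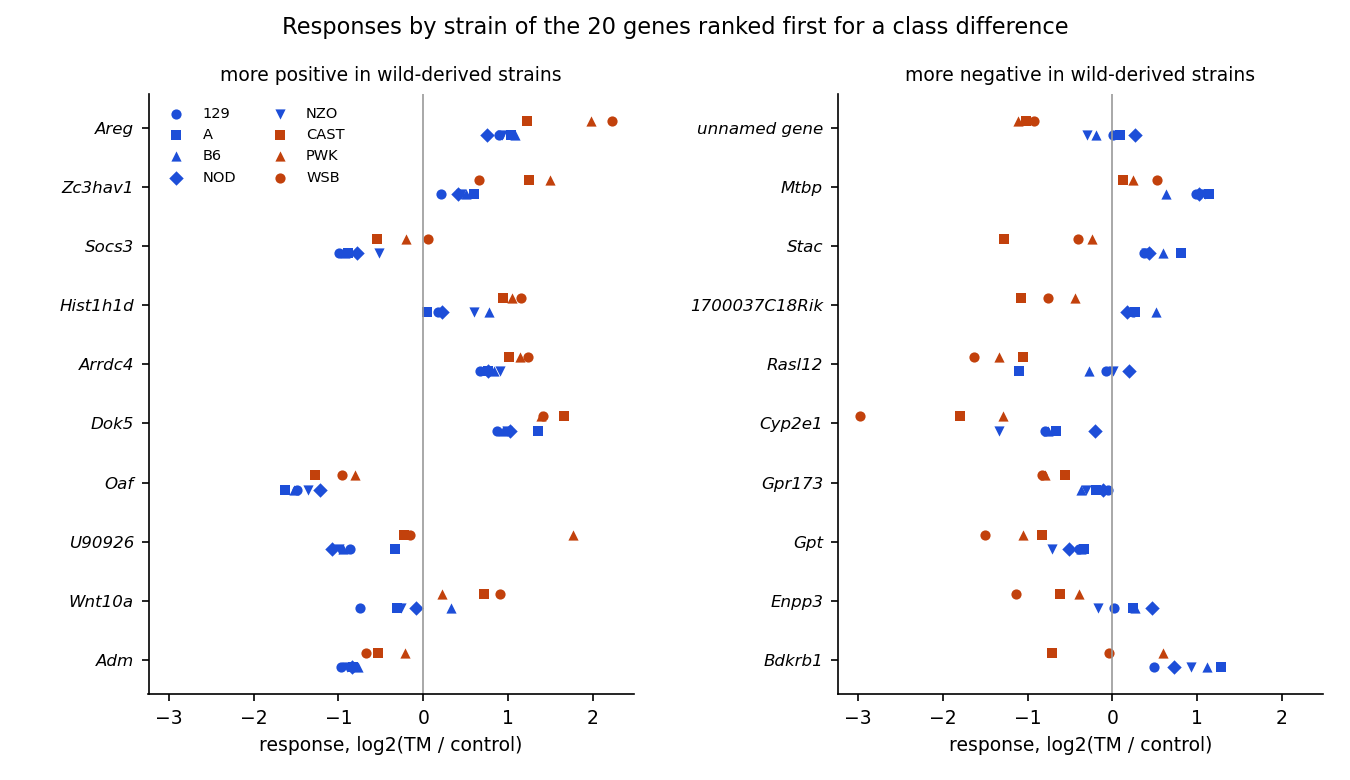
Response, log2(TM / control), by strain of the 10 genes ranked first in each direction, classical strains in blue and wild-derived strains in orange, with the gene given only by its identifier marked as unnamed. The classes separate without overlap for 7 genes on the left and 7 on the right, against 0.951% and 0.602% of all genes tested. The genes were ranked on these same strain values, so their separation follows in part from the choice. WSB is the most extreme point for Cyp2e1, Gpt and Enpp3.

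The 21 AP-1 and immediate early genes are induced within minutes of a signal and encode short-lived transcription factors and phosphatases. In the wild-derived strains 13 of them rose and in the classical strains 6, all 6 in both, and none fell. The class difference was positive for 20 of 21, with a median of 0.29, against 51.9% positive and a median of 0.005 over all genes tested. At an unadjusted p below 0.05 over strains, 3 were higher in the wild-derived strains, against 0.927% of all genes tested. None passed after adjustment. The median response of the list was 0.96 in PWK, 0.59 in WSB and 0.51 in CAST, and 0.69 in NZO, 0.53 in A, 0.30 in NOD, 0.26 in B6 and 0.17 in 129, so that NZO and A lay within the wild-derived range. Without PWK, 6 rose in the wild-derived strains, 6 in the classical strains, and 18 of 21 differences were positive with a median of 0.14. Without WSB control replicate 2 the counts were 12 and 6. Control levels of 18 of the 21 were lower in the wild-derived class, with a median difference of -0.15.

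Dusp1, a phosphatase that inactivates MAP kinases, had the smallest p of the list (difference 0.51, 0.25 to 0.76, unadjusted p = 0.000997 over strains, adjusted p = 0.0626 over libraries). Its responses were -0.11 in WSB, -0.09 in CAST and 0.14 in PWK, and between -0.31 in 129 and -0.70 in NOD in the classical strains. All wild-derived strains were thus above all classical ones, as for 0.951% of all genes tested. Dusp1 was picked for its small p in these same libraries. Its control libraries lay between 65.8 and 207 in the wild-derived and between 65.4 and 150 in the classical class, and its TM libraries reached 220 and 107. Egr1, the early growth response factor with the largest response of the list, rose 3.11 fold and 2.63 fold. Myc rose 2.67 fold and 2.54 fold. Ier3 rose 1.80 fold in the wild-derived strains and changed 1.38 fold in the classical strains (difference 0.38, 0.05 to 0.71).

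The Dusp1 promoter window (chr17:26508423-26508722, minus strand) is shown because it held 1 cyclic AMP response element TGACGTCA, in capitals, an element of immediate early genes that 1.79% of all windows held.
Dusp1: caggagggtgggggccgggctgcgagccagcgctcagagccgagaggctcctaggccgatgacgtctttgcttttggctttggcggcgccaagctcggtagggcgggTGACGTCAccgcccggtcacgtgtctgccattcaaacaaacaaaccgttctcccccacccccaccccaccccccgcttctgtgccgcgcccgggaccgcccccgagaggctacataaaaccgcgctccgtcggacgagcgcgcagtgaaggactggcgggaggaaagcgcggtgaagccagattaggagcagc
Of 16 genes of the list with a window used here, 2 held this element and 2 a CArG box, the binding sequence of serum response factor. Of all windows, 1.63% held a CArG box. A gene was counted if any of its windows held the sequence, and Maff and Egr2 have several, so the gene counts and the shares of windows are unlike measures.

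**Figure D4:**
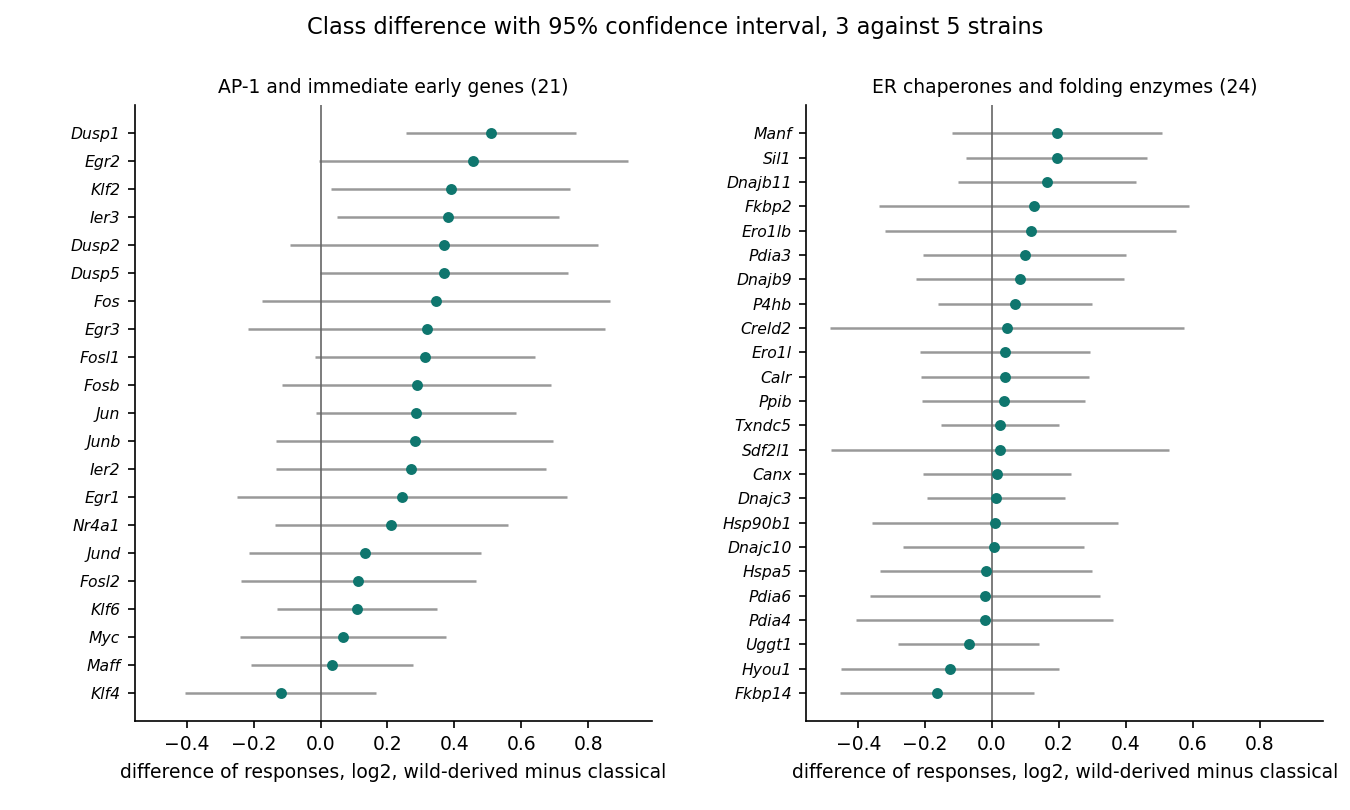
Class difference in response (log2, wild-derived minus classical, horizontal axis) with its 95% confidence interval for each of 21 AP-1 and immediate early genes and 24 ER chaperones and folding enzymes. In the first group 20 points lie to the right of 0 and most intervals include it, and in the second the points lie on both sides of 0.

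Of 22 chemokines and cytokines, 13 rose in the wild-derived and 15 in the classical strains, 13 in both, and 1 fell in the classical strains. Cxcl1, a neutrophil chemokine, was between 0.74 and 3.94 (median 0.88) in wild-derived controls and between 17.0 and 146 (median 24.4) under TM. In classical libraries it was between 0.51 and 13.5 (median 3.30) in control and between 13.4 and 90.5 (median 54.7) under TM. The TM ranges overlapped and the classical median was the higher, while the responses were 4.45 to 5.21 in the wild-derived strains and 3.77 to 4.40 in A, B6, NOD and NZO. In 129 the response was 1.89. The difference was 1.05 (-0.01 to 2.10, unadjusted p = 0.0517 over strains, adjusted p = 0.596 over libraries, limma). With 1 coefficient per strain and treatment, where the error is the spread between wells alone, the adjusted p over libraries was 4e-04 (limma). The value of 129, the lowest of the classical strains, enters this difference. Cxcl2, a related chemokine, responded by 5.77 and 5.13 with values of at most 0.75 in any control, and its difference of 0.65 had an interval of -1.08 to 2.38. Ccl20, a chemokine for dendritic cells and lymphocytes, had control medians of 0.10 in the wild-derived and 0.86 in the classical class, the first near the 0.1 added before taking logs. Its TM values lay between 5.43 and 18.7 in the wild-derived and between 12.4 and 95.1 in the classical libraries. The responses were 5.65 and 4.46, a difference of 1.18 (-0.23 to 2.60, unadjusted p = 0.0936, limma over strains). Strains overlapped, at 5.25 to 5.96 in the wild-derived and 2.00 to 5.54 in the classical class. With 1 added instead of 0.1, the median class difference of the list was 0.005, against 0.17 as reported. The median was -0.04 without 129 and -0.09 without PWK, and it stayed positive without each of the other strains.

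Of 17 NF-kB subunits and feedback genes, 11 rose in each class, 10 of them in both. Tnfaip3, the feedback inhibitor A20, rose 4.19 fold and 3.73 fold. Of 22 interferon-stimulated genes, none rose in the wild-derived and 2 in the classical strains, and 1 fell in each. The shares over all genes tested were 5.63% raised in each class, and 4.18% (wild-derived) and 4.2% (classical) lowered. Isg15, a ubiquitin-like modifier, had responses of -0.27 and 0.34 at control medians of 1.19 and 1.68, a difference of -0.61 (-1.26 to 0.04).

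Of 19 p53 targets and growth arrest genes, 8 rose in the wild-derived and 6 in the classical strains, 6 in both. Gadd45a, a stress-induced growth arrest gene, rose 12.6 fold and 11.4 fold. Plk3, a stress-responsive kinase, rose 2.05 fold and 1.63 fold (difference 0.33, 0.06 to 0.59). Of 25 genes of DNA replication and mitosis, 1 rose, against 5.63% of all genes tested in each class. It was Cdc6, which loads the replicative helicase, and it rose by 2.01 fold and 2.29 fold.

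Of 24 genes of cholesterol and fatty acid synthesis, 7 fell in the wild-derived and 5 in the classical strains, 5 in both, and none rose. Dhcr7, the last enzyme of cholesterol synthesis, fell from medians of 49.8 to 21.3 in the wild-derived and from 19.7 to 11.2 in the classical libraries, with responses of -0.93 and -0.87. Stard4, a sterol carrier, had responses of 0.03 and 0.28 (difference -0.25, -0.46 to -0.04) and rose in neither.

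Of 17 NRF2 antioxidant genes 2 rose in each class, among them Slc7a11, the cystine transporter, by 2.95 fold and 2.72 fold. Of 27 fibroblast matrix genes 1 rose in the wild-derived strains, and in the classical strains 2 rose and 2 fell. Over all genes tested, 5.63% rose in each class, and 4.18% fell in the wild-derived and 4.2% in the classical strains. Timp3, a metalloproteinase inhibitor, fell in the classical strains with a response of -0.72 and had -0.27 in the wild-derived strains (difference 0.45, 0.09 to 0.82). Of 10 snoRNA host and other noncoding RNAs 6 rose in the wild-derived and 5 in the classical strains, 5 in both, and Snhg12 rose 4.07 fold and 3.82 fold. Of 32 genes of secretory trafficking 4 and 3 rose, and Spcs3, a signal peptidase subunit, rose 1.99 fold and 1.88 fold. Over all 16 lists, 340 genes were tested, none was called over strains or over libraries with strain as a block, and Cxcl1 and Sesn2 were called with 1 coefficient per strain and treatment. All wild-derived strains were above all classical strains for 2 of the 340 and below for 2, against 120 (0.951%) and 76 (0.602%) of all 12618 genes tested.

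The control level differed between classes at an adjusted p below 0.05 for 10 genes (0.0793%, limma over strains), 7 higher and 3 lower in the wild-derived strains, and 1337 genes had an unadjusted p below 0.05. Ly6e, a membrane protein of the LY6 family, was between 11.2 and 28.8 in wild-derived and between 58.5 and 169 in classical controls. Amd2 was between 6.95 and 19.5 against 0.17 to 1.15, but it is a near-identical copy of Amd1, so its reads are uncertain. Gpc1, the proteoglycan glypican, was between 290 and 368 against 141 to 237. Of these 10 genes 2 also responded to TM, Ly6e, which fell in the wild-derived strains, and Kctd11, which rose in both classes, and without WSB the number of genes called was 125.

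The F1 crosses gave a second set of cells. The paternal class was compared between 2 crosses with a wild-derived father (xCAST, xWSB) and 3 with a classical father (x129, xNOD, xNZO), all with a B6 mother. No gene of 12006 passed an adjusted p of 0.05 (0%), and 253 had an unadjusted p below 0.05. Over 11938 genes tested in both sets, 48.1% had the same sign of the class difference in the crosses as in the founders. The 20 genes ranked first in the founders, 19 of which were tested in the crosses, had the same sign for 10.

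Of the 3 genes called over libraries, Socs3 and Ugdh kept their sign without overlap and Mtbp kept its sign with overlap. So few crosses can separate without a class effect, and the share of all genes that separate in the crosses was not counted. Socs3 had responses of -0.23 in xCAST and -0.22 in xWSB against -0.84 in x129, -0.67 in xNZO and -0.62 in xNOD (difference 0.48, unadjusted p = 0.0136, limma over crosses, adjusted p of 1). Ugdh had 0.42 in xCAST and 0.38 in xWSB against 0.16 in x129, 0.16 in xNOD and 0.10 in xNZO (difference 0.26, unadjusted p = 0.0736). Mtbp had 0.73 in xCAST and 0.54 in xWSB against 0.93 in xNZO, 0.91 in x129 and 0.54 in xNOD (difference -0.16, unadjusted p = 0.414). Derl3, whose difference was 0.93 in the founders and not called, had a difference of -1.67 in the crosses. In the AP-1 and immediate early list 16 of 21 differences were positive in the crosses, with a median of 0.26 against 0.02 over all genes.

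**Figure D5:**
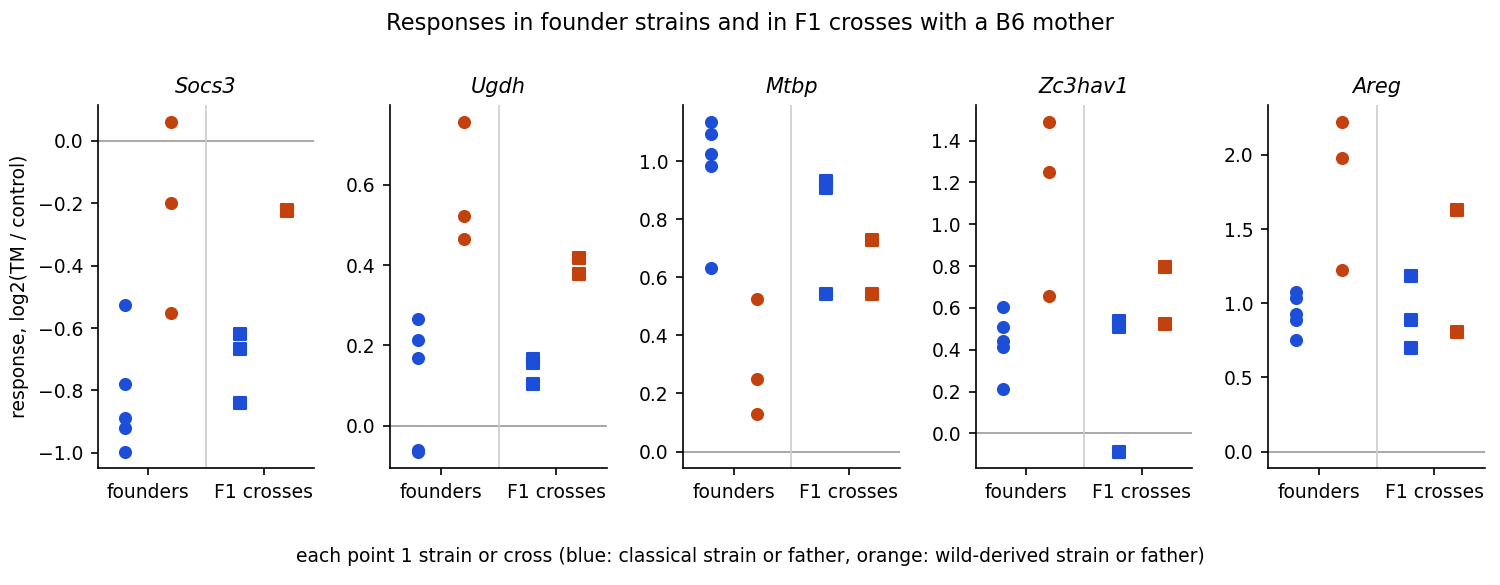
Responses, log2(TM / control), of 5 genes in founder strains (circles) and F1 crosses with a B6 mother (squares), blue for classical and orange for wild-derived strains or fathers. Socs3 and Ugdh are separated in the crosses too, which so few crosses can show without a class effect, whereas Mtbp, Zc3hav1 and Areg overlap there.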

How the data were processed

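RNA was sequenced as single-end reads of 100 bp. Per the labels, the authors used FastQC, Trimmomatic, TopHat 1.4.1 and edgeR, with builds GRCm38 and mm10. Reads were aligned to strain-specific genomes with up to 3 mismatches, libraries were TMM-normalised, and outlier libraries were removed before deposit. The deposited values carry the name FPKM but are a read signal: in each library they are whole multiples of 1 step shared by all genes (tolerance 0.1 of a read), so they were not divided by gene length. Founder and F1 tables were normalised separately. Whole reads were recovered from 66 of 68 libraries and 100% of their lower values were whole. PWK TM replicate 2 and WSB TM replicate 1 were left out of read-based tests because their step could not be told from rounding. In the F1 tables, 3 rows without a gene (15.5% to 24.1% of the sums) were left out.

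A gene was tested if it reached 0.5 in at least 2 libraries of a strain, in at least 2 strains of each class. limma 3.58.1 (R 4.3.3) was fitted to log2(value + 0.1), per strain or per library, with a prior variance that follows the gene's mean level, and p-values were adjusted by the Benjamini-Hochberg method over all genes tested. These tests were planned for FPKM and suit the signal as found. Class differences were called at an adjusted p below 0.05 and responses at an adjusted p below 0.01 and 1.5 fold. Single values were tested by exact permutation over the 56 arrangements of strains. In all 28 pairs of libraries of a founder group whose reads were recovered, reads differed by more than sampling noise (chi-square per degree of freedom 1.87 to 110).

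Genes were named by a rule: the 10 smallest p over strains in each direction among genes with a 1.5 fold response in a class, list members called in either test (none), and 7 reference genes. Ugdh, outside the rule, was named because it was 1 of 3 genes called over libraries. Other examples, the adipocyte list and the motifs were chosen after values were seen. Of each list, the members with the largest mean response or the smallest p over libraries were preferred. The comparison and the lists were chosen with earlier results of these data known. edgeR 4.0.16 on the recovered reads of 38 libraries, other filters, pseudocounts, scalings and left-out strains or libraries were alternatives. The scripts were tested on simulated data. Promoters and gene positions are from RefSeq (GRCm38.p6) and GENCODE (GRCm38).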

Additional observations from a re-analysis of the deposited data

Results flagged for a closer look

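Within the 5 classical strains a single strain lay far from the others for 3 of the named genes, by Dixon's criterion, which chance meets in about 1 of 20 groups. For U90926 the response of A (-0.33) was the highest, for 1700037C18Rik that of B6 (0.51) was the highest, and for Cxcl1 that of 129 (1.89) was the lowest. The class by treatment difference over libraries passed an adjusted p of 0.05 (limma) for Mtbp (-0.69), Socs3 (0.61) and Ugdh (0.49). With strains as the units none of these 3 passed.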

How the results depend on the processing

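The count of class differences over strains was 0 under every alternative run. Over libraries the 3 calls became 1 with no trend in the prior variance, 0 at an adjusted p below 0.01, 6 with 1 coefficient per strain and treatment (the 3 and Cxcl1, Sesn2 and Gdnf), 0 by limma on 38 libraries and 0 by edgeR on their reads (both added after the data were seen). With strains left out, the only call was Mtbp without B6, Socs3 without CAST or NZO, and Sesn2, not 1 of the 3, without PWK. There were 0 calls without NOD. Without A the 3 calls were other genes (Dusp14, Gdnf and Rasl12). Without WSB they were Hs3st3b1, Mtbp and Zc3hav1, and without 129 the 4 calls were Dusp1, Ifnar1, Mtbp and Ugdh. The number was 0 (without CAST control replicate 3) to 8 (without WSB TM replicate 3) when single libraries were left out. Same-numbered libraries had no deviation in common over all strains (16 pairs, r between -0.56 and 0.358, median 0.001, 4 over 0.1). The highest r were 0.358 in 129 replicate 3 and 0.234 and 0.249 in NZO, and the lowest was in A replicate 1. A replicate block left 0 calls. Lowered genes numbered 252 in the wild-derived strains without PWK and 344 in the classical strains at a pseudocount of 1. The 10 control-level calls became 6 with no trend, 5 without 129, A or CAST, 6 without B6 or NZO, 4 without NOD, 125 without WSB, and 4 to 10 without single libraries. The response counts without single libraries were 618 to 812 raised and 378 to 699 lowered (wild-derived), and 650 to 784 and 395 to 649 (classical). Signs turned in the settings that follow. The wild-derived response of U90926 was -0.1935 without PWK, and that of Bdkrb1 was 0.005738 at pseudocount 1, 0.0505 with strain medians, 0.03391 with strains weighted by libraries, 0.008427 with the replicate block, 0.2765 without CAST and -0.2152 to 0.1635 without single libraries. The classical response of ENSMUSG00000042233 was 0.03714 with strain medians, 0.01358 without B6, 0.04279 without NZO and -0.1009 to 0.04733 without single libraries. The Hspa5 difference was 0.001695 weighted, 0.0004522 with the block, 0.00504 without A, 0.1225 without CAST, 0.04024 without NZO and -0.07675 to 0.02256 without single libraries. The Ddit3 difference was -0.1037 without B6, -0.0005506 without NOD and -0.09814 without WSB. The Xbp1 difference was -0.01466 weighted, -0.09439 with the block, -0.01355 without 129, -0.04492 without CAST, -0.003147 without NOD, -0.01058 without NZO, -0.01155 without WSB and -0.02854 to 0.04036 without single libraries. The Herpud1 difference was 0.005025 without NZO and 0.01254 without PWK, and the Cxcl2 difference -0.04093 without 129. The cause was not tested. The classes have 3 and 5 strains, each a single cell pool, and this number limits the precision of the values over strains.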
